A study of Mus musculus with 8 samples.

Results

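A set of 9 long noncoding RNA genes was followed in mouse liver: Neat1, Malat1, Meg3, Gas5, Snhg1, Snhg11, Snhg12, Mir22hg and Kcnq1ot1. They were chosen by symbol, and all 9 were found once each among the 56077 genes and loci of the deposited count table. All 9 also passed the filter on low counts, which left 14261 genes. The livers came from 6-month-old C57BL/6 mice in the fed state, 4 wild type and 4 labelled Eif2a flox/+, heterozygous for eIF2α. eIF2α is a subunit of translation initiation factor 2, and its phosphorylation slows protein synthesis under stress. The labels name no recombinase, and their growth protocol describes the mice of both groups as lean and wild type. Libraries keep the column names of the table: W32, W33, W76 and W90 for wild-type livers, with H11, H12, H15 and H75 for heterozygotes. Litters are not labelled, so p-values measure only the spread between these samples.

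These RNAs fall into groups with different biology. Neat1 is the scaffold of paraspeckles, nuclear bodies that hold RNA-binding proteins, and Malat1 accumulates in nuclear speckles beside splicing factors. Gas5, Snhg1, Snhg11 and Snhg12 are snoRNA hosts: their introns release small nucleolar RNAs that guide the chemical modification of ribosomal RNA. The spliced Gas5 RNA carries a short reading frame and is degraded when it is translated, so it is known to accumulate when growth or translation stops. Meg3 and Kcnq1ot1 lie in imprinted domains, Meg3 being transcribed from the maternal and Kcnq1ot1 from the paternal chromosome. Mir22hg is the primary transcript of miR-22. Ribosomal RNA was removed before sequencing rather than polyadenylated RNA being selected, so long transcripts without a poly(A) tail can be kept. Short RNAs such as snoRNAs were nearly absent from the counts all the same.

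Library totals were 22177979 to 28564357 counts, and 10 hepatocyte marker genes together took 86162 to 114300 CPM, as the tissue label implies. Eif2s1, the gene of eIF2α, was at 28.4 to 32.8 CPM (counts divided by the TMM-scaled library size) in wild-type libraries and at 20.5 to 25.1 CPM in heterozygous libraries, a log2 fold change of -0.44 (SE 0.095). The quasi-likelihood test of edgeR called 0 of the 14261 genes at a Benjamini-Hochberg adjusted p under 0.05 (percent called 0), with 1332 genes (9.34%) at an unadjusted p under 0.05. DESeq2 called 152 genes (1.16%) and limma-voom 0. Without H15, edgeR called 252 of 14505 genes (1.74%), and values without H15 are given where they differ in call or by much in size. H15 was singled out from these data, since leaving it out changed the calls most, so fits without it are no independent test.

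Sequences are shown for the members whose values differed most between the genotypes and for the snoRNA hosts. Meg3 and Rian, the next maternally expressed RNA gene on chromosome 12, were high in the same libraries. Their start regions are printed from RefSeq on GRCm38.p6, from 250 bases before to 50 bases after the start site, on the plus strand, at chr12:109540746-109541045 for the first of the Meg3 start sites in the table and chr12:109603695-109603994 for Rian. Capitals mark matches to a cAMP response element (TGACGTCA), to a TATA box (TATAAA) or to a STAT site (TTCNNNGAA). For Snhg11 the 250 bases before the start are shown, at chr2:158375463-158375712 on the plus strand, and hold none of these.
Meg3: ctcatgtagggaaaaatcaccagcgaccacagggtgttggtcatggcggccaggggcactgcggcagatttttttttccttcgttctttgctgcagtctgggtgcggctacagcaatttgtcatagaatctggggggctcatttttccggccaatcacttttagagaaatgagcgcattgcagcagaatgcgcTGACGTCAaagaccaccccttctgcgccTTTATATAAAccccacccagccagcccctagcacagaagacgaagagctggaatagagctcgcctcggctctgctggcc
Rian: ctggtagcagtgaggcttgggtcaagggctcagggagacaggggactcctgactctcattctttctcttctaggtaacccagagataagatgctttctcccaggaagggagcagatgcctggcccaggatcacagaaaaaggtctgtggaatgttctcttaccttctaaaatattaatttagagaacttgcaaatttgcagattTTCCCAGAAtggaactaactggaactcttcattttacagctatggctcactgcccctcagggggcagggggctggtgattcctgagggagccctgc
Snhg11: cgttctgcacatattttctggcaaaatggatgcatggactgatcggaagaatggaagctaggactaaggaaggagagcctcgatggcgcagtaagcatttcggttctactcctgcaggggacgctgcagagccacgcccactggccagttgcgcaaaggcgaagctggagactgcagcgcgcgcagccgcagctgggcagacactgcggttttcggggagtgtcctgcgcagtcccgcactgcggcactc
The cAMP response element of Meg3 began 57 bases before the start and was found in 1.79% of 32851 RefSeq start regions of the same length. Its TATA box was read on both strands, as overlapping matches that began 29 and 25 bases before the start, and 13.6% of the regions held one. The STAT match of Rian began 46 bases before its start, against a match in 8.30% of regions. AP-1 sites (TGANTCA, 7.81% of regions) and the composite C/EBP-ATF site (TGATGCAAT, 0.192%) had no match in the 3 windows. The other Meg3 start region, at chr12:109545148-109545447, held no match to any of the sites named here. Letters were searched on both strands, and a match describes the sequence without showing that a factor binds there.

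The snoRNA hosts are known for transcripts that begin with a run of pyrimidines, the 5′ terminal oligopyrimidine tract, which ties their handling to translation as in ribosomal protein genes. The first 30 bases from the annotated start are printed for 3 hosts, with the leading pyrimidines in capitals.
Gas5, the downstream of its start sites, chr1:161035166-161035195: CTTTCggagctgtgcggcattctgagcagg
Snhg1, chr19:8723487-8723516: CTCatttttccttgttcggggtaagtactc
Snhg12, chr4:132308678-132308707: TTTCTCgcttcatccgcggtccctgtctgt
Gas5 opened with 5 pyrimidines at this start, Snhg12 with 6 and Snhg1 with 3. The other Gas5 start in the table and the Snhg11 start opened with 0. For comparison, 4.44% of all RefSeq starts open with at least 5 and 10.7% with at least 3. The printed Gas5 start also has a cAMP response element that began 46 bases before it. Of the 9 members, 8 had an entry in the start region table, Neat1 being the other.
Mir22hg carries miR-22, whose mature strands are printed with the seed, bases 2 to 8, in capitals.
mmu-miR-22-5p, chr11:75463734-75463755: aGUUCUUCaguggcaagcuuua
mmu-miR-22-3p, chr11:75463772-75463793: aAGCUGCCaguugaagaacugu
The miR-22 gene itself had 0 counts in the deposited table, which does not show that so short an RNA was absent from the liver.

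On a scale of CPM per kilobase of the gene length that the authors list, the members differed widely. Gas5 was at a mean of 19.05 and Malat1 at 18.7 CPM per kilobase over the 8 libraries, with ranges that overlapped widely. Neat1 followed with a mean of 12.3 and Mir22hg with 9.84, again with overlapping ranges. Snhg12 (3.65), Snhg11 (3.08) and Snhg1 (1.87) came next, each overlapping its neighbour in this order, while all libraries of Mir22hg were above all of Snhg12. Meg3 (0.182) and Kcnq1ot1 (0.0459) were lowest, and their ranges of 0.0390 to 0.567 and 0.0290 to 0.0660 overlapped. Without the length, the order began with Neat1, Malat1 and Gas5. Gas5, Neat1 and Snhg11 each moved by 2 places between the scales and Kcnq1ot1, listed with 93092 bases, by 1. Neat1 is listed at 20771 bases, the long form, which shares its 5′ end with a shorter one.

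**Figure D1:**
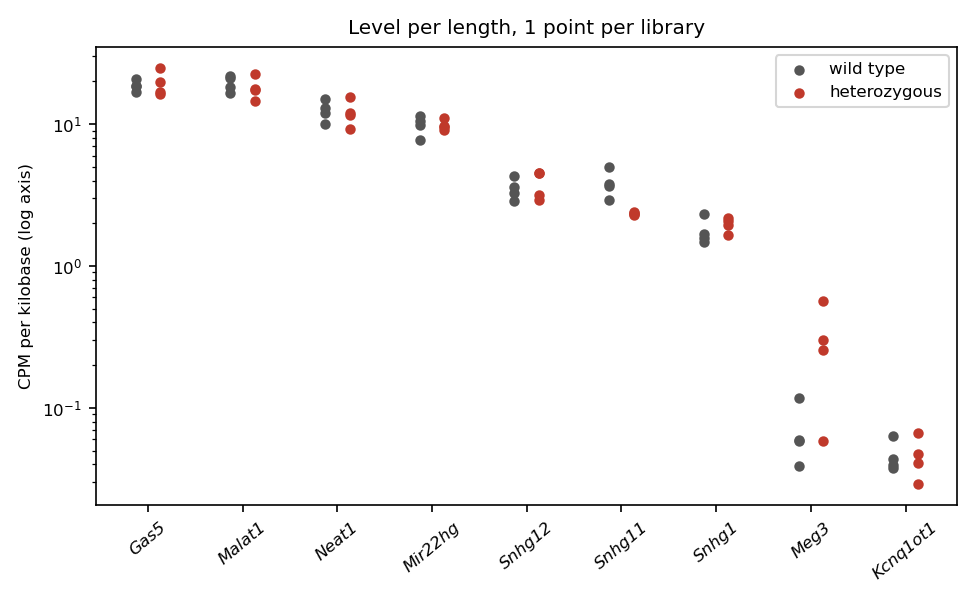
CPM per kilobase of listed gene length on a log axis, 1 point per library, wild type in grey and heterozygous in red, members ordered by their mean over 8 libraries. Gas5 and Malat1 are highest with means of 19.05 and 18.7, and Meg3 is the member whose heterozygous points reach highest above its wild-type points.

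Of the 9 members, edgeR called 0 at an adjusted p under 0.05, DESeq2 called 2 (1.16% of all genes it tested) and limma-voom 0. One was Meg3, higher in heterozygous livers, a direction in which DESeq2 called 0.692% of all genes. The other was Snhg11, lower, where DESeq2 called 0.464%. The same pair had an unadjusted edgeR p under 0.05, as did 4.9% of all genes in the higher and 4.44% in the lower direction. Without H15, edgeR called 1 member, Meg3, against 0.848% of all genes called higher and 0.889% called lower. Across the members the median log2 fold change was -0.0092, against 0.0051 over all genes. In 4 of 9 members the log2 fold change was above 0, as it was in 51.1% of all genes, and over the 20 alternative settings this number ran from 3 to 6. Snhg11 was the 1 member whose groups did not overlap, where 4.38% of all genes had groups without overlap, 2.06% with the heterozygous group above and 2.32% with it below.

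**Figure D2:**
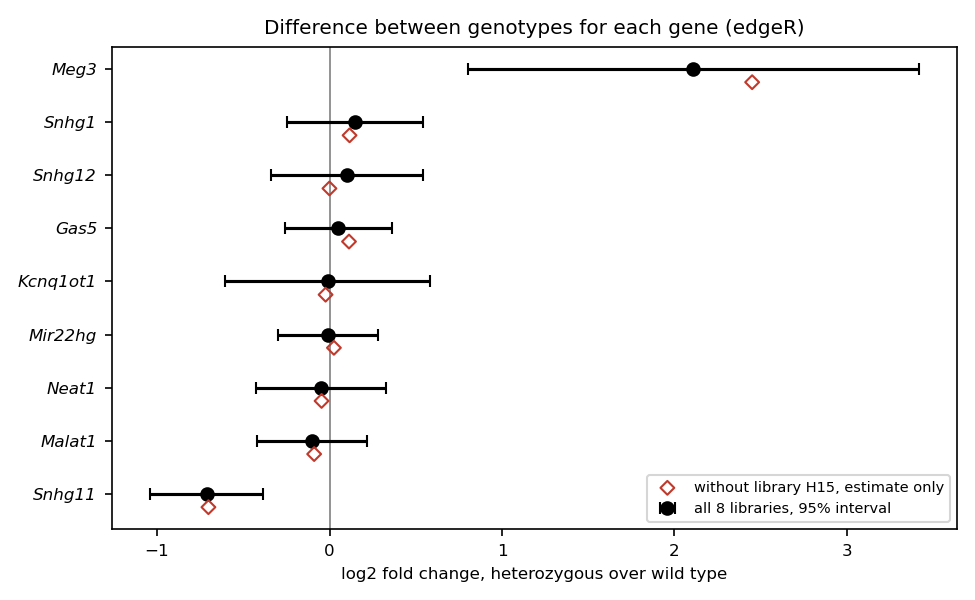
Log2 fold change of heterozygous over wild type for each member (edgeR), black points with 95% intervals from all 8 libraries and open red diamonds for the estimate without H15. The intervals of Meg3 (0.80 to 3.42) and Snhg11 (-1.04 to -0.39) lie on one side of 0 and the other 7 include 0.

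Neat1 lies on the minus strand of chromosome 19, from 5824708 to 5845478 of GRCm38, and was the most highly counted member. In W32, W33, W76 and W90 its expression was 248, 207, 310 and 272 CPM. In H11, H12, H15 and H75 it was 192, 322, 249.5 and 239 CPM. Both the lowest and the highest of the 8 libraries were heterozygous, and the groups overlapped throughout. Wild-type libraries averaged 259 ± 43.4 CPM and heterozygous ones 251 ± 53.6 CPM (SD, n = 4 each), with a log2 fold change of -0.05 with a 95% interval of -0.43 to 0.33 (adjusted p = 0.949, edgeR).

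Malat1 lies 22035 bases from Neat1 on the same strand, from 5795690 to 5802672. It was at 115, 127, 153 and 146 CPM in W32, W33, W76 and W90. In H11, H12, H15 and H75 it was at 157, 102, 123 and 122 CPM, so H11 was the highest and H12 the lowest of all 8. That order was the reverse of Neat1, which was lowest in H11 and highest in H12. The ratio of Neat1 to Malat1 in CPM was 1.22 in H11 and 3.15 in H12, against 1.63 to 2.16 in wild-type libraries and 2.04 and 1.96 in H15 and H75. Malat1 averaged 135 ± 17.7 and 126 ± 22.9 CPM (SD, n = 4 each), for a log2 fold change of -0.10 with a 95% interval of -0.42 to 0.22 (adjusted p = 0.852, edgeR).

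Genes for proteins of the same nuclear bodies showed few differences in RNA, and the proteins were not measured. Of 16 paraspeckle protein genes tested, 0 were called by edgeR or DESeq2 and 0 had an unadjusted p under 0.05. By mean 9 were higher and 7 lower, with a median log2 fold change of 0.01. Smarca4, a chromatin remodelling ATPase, was the one of lowest p, with a log2 fold change of -0.27 (adjusted p = 0.548, edgeR). Of 17 nuclear speckle protein genes, 0 were called, and 1, the splicing factor gene Rnps1, had an unadjusted p under 0.05 (log2 fold change 0.22, adjusted p = 0.527, edgeR).

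**Figure D3:**
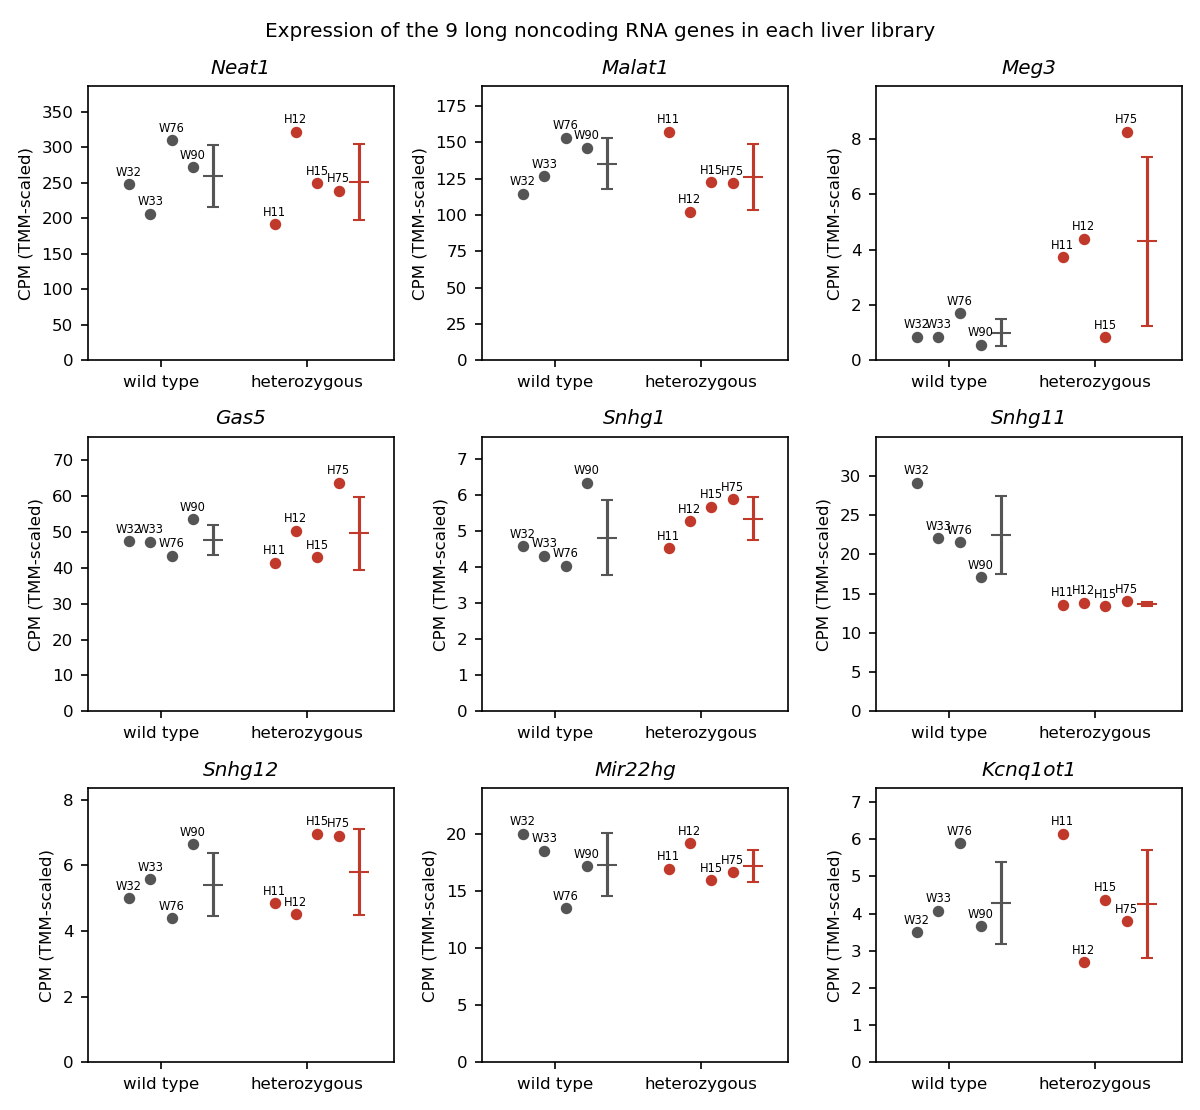
TMM-scaled CPM of each member in each library, wild type in grey and heterozygous in red, with the mean and SD (n = 4) beside the points and every axis starting at 0. Snhg11 is the member whose groups do not overlap, and Meg3 is high in H11, H12 and H75 and within the wild-type range in H15.

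Meg3 had the largest fold change of the members. Its gene spans 109541001 to 109571726 on chromosome 12 (GRCm38, plus strand), with 11 annotated transcripts. Its expression was 0.852, 0.858, 1.70 and 0.567 CPM in W32, W33, W76 and W90. In H11, H12 and H75 it was 3.73, 4.39 and 8.25 CPM, and in H15 it was 0.850 CPM. The first 3 were above every wild-type library, while H15 lay inside the wild-type range, so the groups overlapped. Read numbers behind them were 15 to 165 per library. Wild-type libraries averaged 0.993 ± 0.488 CPM and heterozygous ones 4.31 ± 3.05 CPM (SD, n = 4 each). The log2 fold change was 2.11 with a 95% interval of 0.80 to 3.42 that did not pass over all genes (adjusted p = 0.378, edgeR). With DESeq2 the adjusted p was 0.0186. Leaving out H15 gave a log2 fold change of 2.45 (adjusted p = 0.0238, edgeR). As H15 is the heterozygous library inside the wild-type range, that choice by itself widens the difference. Leaving out any other library gave adjusted p-values of 0.428 to 0.747 with edgeR. Of 20 alternative settings 4 passed, DESeq2 with all libraries and the fits without H15. Adjusted p-values ran from 2.38e-07 to 0.747, and the log2 fold change was lowest, 1.59, without H75. The authors' deposited table lists Meg3 with a fold change of 4.35 and an adjusted p of 0.0174, marked as significant.

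Rian, also known as Meg8, is transcribed on the same strand 32213 bases beyond Meg3 and is itself a host of box C/D snoRNAs. It is not among the 9 and is described because it neighbours Meg3. Rian was at 0.579, 0.393, 0.347 and 0.227 CPM in W32, W33, W76 and W90. In H11, H12, H15 and H75 it was at 1.97, 2.04, 0.595 and 2.80 CPM. All heterozygous libraries were above all wild-type libraries, with H15 above W32 by less than the spread within either group. Its log2 fold change was 2.23 (SE 0.47, adjusted p = 0.314, edgeR). Its adjusted p was 0.00349 with DESeq2 and 0.0104 with edgeR when H15 was left out. It rests on 6 to 56 reads per library. H75 was the highest library for both Meg3 and Rian, and the ratio of Meg3 to Rian was 1.43 to 2.95 in heterozygous and 1.47 to 4.89 in wild-type libraries.

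Most other genes of this imprinted domain had no counts. From Dlk1 to Dio3, GENCODE release 21 annotates 118 genes, 67 of them miRNA and 23 snoRNA genes, and 12 had any count in the deposited table. None of these 12 was a miRNA or snoRNA gene, and RNAs that short may not have been retained in the libraries. Gm34667, a lincRNA on the opposite strand, had more counts than Meg3, 1511 against 500.0 over the 8 libraries. It was at 5.45 to 9.40 CPM in wild-type and 5.61 to 10.56 CPM in heterozygous libraries, so the groups overlapped, with a log2 fold change of 0.16 (adjusted p = 0.856, edgeR). Dio3os, beside Dio3, had 108 counts. Mirg, the maternally expressed miRNA host beyond Rian, had 13 reads in all 8 libraries together. Dlk1, a paternally expressed gene that restrains cell differentiation, had 4 reads, and Dio3, which inactivates thyroid hormone, had 33.

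Markers of other cell types were set beside Meg3. The 9 markers of stellate cells, the matrix-producing cells of the liver, summed to 277 to 347 CPM in wild-type libraries and to 388, 245, 359 and 160 CPM in H11, H12, H15 and H75. All 9 were detected in every library. Their sum was lowest in H75, the library of highest Meg3, and highest in H11. The 7 neutrophil markers summed to 3.03 to 7.49 CPM in wild-type libraries and to 13.6, 45.2, 6.03 and 27.8 CPM in H11, H12, H15 and H75. H15 was again inside the wild-type range. In the heterozygous libraries most of that sum was Lcn2, an iron-binding protein that hepatocytes also make in inflammation (log2 fold change 2.61, adjusted p = 0.354, edgeR). Lcn2 passed with DESeq2 (adjusted p = 0.0373) and without H15 (2.94, adjusted p = 0.0282, edgeR). All 5 neutrophil markers tested had a higher mean in heterozygous livers, against 51.1% of all genes. Of them 4 had an unadjusted edgeR p under 0.05, against 4.9% of all genes in that direction. Higher means were not particular to these markers. They were also found for 7 of 7 Kupffer cell, 5 of 5 biliary epithelial, 7 of 8 sinusoidal endothelial and 9 of 10 hepatocyte markers. Of the 9 stellate cell markers 1 was higher. S100a9, a calcium-binding protein of neutrophils, had a log2 fold change of 2.13 (adjusted p = 0.442, edgeR), and 2.52 without H15 (adjusted p = 0.0211, edgeR). S100a8 had 1.74 and Il1b 1.12 (adjusted p = 0.479 for each, edgeR). Ly6g was at 0 in 7 of 8 libraries, with 0.085 CPM in H15. The part of these cells in the Meg3 values was not tested. In whole liver, more cells of a type and more RNA per cell cannot be told apart. Among 11253 named genes of at least 1 CPM, the pair whose log2 CPM was most like Meg3 over the 8 libraries were Cd207 (Pearson r = 0.989, Spearman rho = 0.976) and Saa4, an apolipoprotein of the serum amyloid A family (r = 0.986, rho = 0.976). They were picked as the highest of all, and all 3 share the same libraries, so no p is given.

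**Figure D4:**
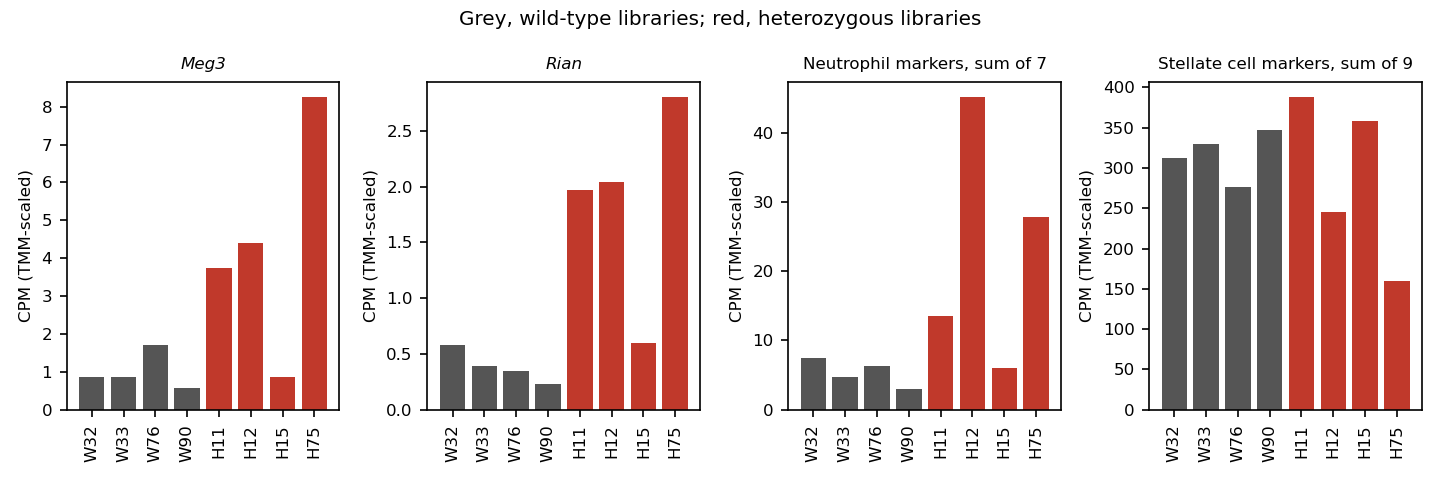
Bars of TMM-scaled CPM per library for Meg3, Rian, the summed 7 neutrophil markers and the summed 9 stellate cell markers, wild type in grey and heterozygous in red. Meg3, Rian and the neutrophil sum are high in H11, H12 and H75 and low in H15, while the stellate cell sum is lowest in H75.

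Kcnq1ot1, the other imprinted member, did not follow Meg3. It lies on the minus strand of chromosome 7, from 143203458 to 143296549, and silences neighbouring genes on the paternal chromosome. It was at 3.51, 4.07, 5.90 and 3.67 CPM in W32, W33, W76 and W90. In H11, H12, H15 and H75 it was at 6.14, 2.70, 4.38 and 3.802 CPM, with H11 highest and H12 lowest, as for Malat1. The log2 fold change was -0.01 with a 95% interval of -0.60 to 0.58, the widest of the members other than Meg3 (adjusted p = 0.994, edgeR). Kcnq1ot1 lies opposite Kcnq1, and where counting does not use strand, reads of unspliced Kcnq1 RNA cannot be told apart from it. Of 16 genes listed as neighbours in the 2 domains, 8 were tested and edgeR called 0 of them, while DESeq2 called Rian. The Kcnq1 domain gene of lowest p was Cd81, a tetraspanin, with a log2 fold change of -0.12 and no call by either tool.

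Snhg11 lay lower in heterozygous livers. It spans 158375638 to 158386145 on chromosome 2 (plus strand), and GENCODE release 21 gives its gene the type protein-coding, although it is known as a snoRNA host. The wild-type values were 29.1 (W32), 22.05 (W33), 21.6 (W76) and 17.1 (W90) CPM. The heterozygous values were 13.6 (H11), 13.9 (H12), 13.4 (H15) and 14.01 (H75) CPM. Every heterozygous library was below every wild-type library, H15 included. The means were 22.5 ± 4.97 and 13.7 ± 0.283 CPM (SD, n = 4 each), for a log2 fold change of -0.71 with a 95% interval of -1.04 to -0.39 (adjusted p = 0.278, edgeR). Of 20 alternative settings, the 2 DESeq2 fits, with and without H15, passed (adjusted p = 0.00643 with all libraries), and the others reached up to 0.608. Without W32, the highest library, the log2 fold change was -0.56 (adjusted p = 0.543, edgeR). The authors' deposited table gives a fold change of 0.611 and an adjusted p of 0.00695 and does not mark it as significant.

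The spread of Snhg11 differed between the groups as well. Its coefficient of variation was 22.1% in wild-type libraries and 2.07% in heterozygous libraries, where counting error alone gives about 4.01% at 452 to 855 reads and 5.56% at 280 to 359.6 reads. The 4 heterozygous values were thus closer to each other than counting error gives on average, and the difference in spread was not tested. Snhg11 is also expressed in neurons. Of 7 neuronal markers, Snap25 and Elavl4 were at 0 in all libraries, and the sum of the 7 was 4.39 to 6.75 CPM in wild-type and 5.31 to 8.59 CPM in heterozygous libraries. Syt1, a synaptic vesicle gene, made up most of that sum at 3.54 to 7.19 CPM, and the others were at most 1.25 CPM. Of the 2 tested, Syt1 had a log2 fold change of 0.40 and Map2 one of -0.16, neither of them called. The part of neuronal cells in the Snhg11 values was not tested. The genes most like Snhg11 over the 8 libraries were Hr, a transcriptional corepressor (r = 0.976, rho = 0.810), and Acaa1b, a peroxisomal thiolase (r = 0.961, rho = 0.881).

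The other snoRNA hosts among the members were close in both genotypes. Gas5 (chromosome 1, 161034422 to 161038539, plus strand) was at 47.3, 47.2, 43.3 and 53.4 CPM in W32, W33, W76 and W90. In H11, H12, H15 and H75 it was at 41.4, 50.3, 42.9 and 63.6 CPM. H75 was the highest of all and H11 the lowest, and the groups overlapped. The log2 fold change was 0.05 with a 95% interval of -0.26 to 0.36 (adjusted p = 0.935, edgeR), negative without H75 (-0.094) or with library totals as the scaling (-0.051).

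Snhg1 (chromosome 19, 8723475 to 8726443, plus strand) hosts a cluster of box C/D snoRNAs. It ranged from 4.05 to 6.35 CPM in wild-type and from 4.54 to 5.90 CPM in heterozygous libraries, W90 being highest. Its log2 fold change was 0.15 with a 95% interval of -0.25 to 0.54. Snhg12 (chromosome 4, 132308623 to 132311024, plus strand) ranged from 4.39 to 6.66 and from 4.51 to 6.97 CPM. Its log2 fold change was 0.10 with a 95% interval of -0.34 to 0.54, and -0.00037 without H15. Neither passed any test run. Both rest on 105 to 176 reads per library.

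Mir22hg (chromosome 11, 75461539 to 75466676, plus strand) was at 13.5 to 19.99 CPM in wild-type and 15.9 to 19.2 CPM in heterozygous libraries. The means were 17.3 ± 2.78 and 17.2 ± 1.40 CPM (SD, n = 4 each), and the log2 fold change of -0.01 had a 95% interval of -0.30 to 0.28. Its exons share 206 bases with those of Tlcd2 on the same strand, which had 21774 counts in all, so part of its count depends on how reads were split.

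The members differed in how evenly they were expressed among livers of 1 genotype. For Neat1, counted with 4775 to 8353 reads per library, the coefficient of variation was 16.7% in wild-type and 21.4% in heterozygous libraries, where counting error gives about 1.19% and 1.30%. Malat1 varied by 13.1% and 18.1%, and Gas5 by 8.75% and 20.5%, all well above their counting error of at most 2.94%. Meg3 varied most, by 49.1% and 70.8%, against a counting error of 19.2% and 10.1%. For Snhg1 and Snhg12, counting error was 8.21 to 8.93% against a spread of 11.3 to 22.5%. The difference in spread between the genotypes was not tested for any member.

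For each other member, too, the genes of most similar log2 CPM over the 8 libraries are given as a description, picked as the highest of 11253 and without a p. Gas5 was most like Rnaseh2a, a subunit of the enzyme that removes ribonucleotides from DNA (r = 0.981, rho = 0.881). Snhg1 was most like the corepressor gene Ctbp1 (r = 0.982, rho = 0.976), with Eif3h, a subunit of translation initiation factor 3, next (r = 0.963, rho = 0.857). Malat1 was most like Cyp2d12, a cytochrome P450 gene (r = 0.932, rho = 0.857), and Neat1 most like Armc1 (r = 0.956, rho = 0.952). The members themselves were left out of these 11253 genes. Whether Neat1 and Malat1 were close to each other was therefore not tested by this comparison. Kcnq1ot1 was closest to Narf (r = 0.973, rho = 0.929), Snhg12 to Ino80b (r = 0.961, rho = 0.881) and Mir22hg to Gimap8 (r = 0.917, rho = 0.905). In the authors' deposited table the 7 members other than Meg3 and Snhg11 had adjusted p-values of 0.902 to 0.998, and none of them was marked as significant.

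Of 19 other snoRNA-host long noncoding RNAs listed, 16 were in the table and 13 were tested. Means were higher in heterozygous livers for 10 and lower for 3, against 51.1% higher over all genes. No call was made by edgeR, Rian was the 1 with an unadjusted p under 0.05, and DESeq2 called 1, Rian. The next of lowest p was Snhg17, with a log2 fold change of 0.14 (adjusted p = 0.683, edgeR). The 13 had a median log2 fold change of 0.14, against 0.0051 over all genes. Whether this median or the 10 higher means hold with library totals as the scaling was not tested. Among Gas5, Snhg1, Snhg12 and these 13, W90 was the highest wild-type library for 9 of 16 and H75 the highest heterozygous library for 8 of 16.

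Protein-coding hosts, mostly ribosomal protein and translation factor genes, had higher means in heterozygous livers for 29 of 32, against 51.1% of all genes. The median log2 fold change was 0.20, against 0.0051 over all genes. None passed with edgeR or DESeq2. Higher at an unadjusted edgeR p under 0.05 were 3, against 4.9% of all genes. Rpsa, a protein of the small ribosomal subunit, averaged 296 ± 36.4 and 391.8 ± 53.4 CPM (SD, n = 4 each), for a log2 fold change of 0.40 (adjusted p = 0.414, edgeR). It was the 1 host of 32 called by DESeq2 without H15 (adjusted p = 0.0264), a fit that called 778 of 14505 genes. Ppan, a ribosome assembly factor, had a log2 fold change of 0.63 (adjusted p = 0.422, edgeR). The 32 hosts summed to 7455 to 8974 CPM in wild-type libraries, 8329 and 8101 CPM in H11 and H15, and 10799 and 10243 CPM in H12 and H75. On the TMM scale, the sums of H12 and H75 were thus above every wild-type library, and those of H11 and H15 lay within the wild-type range. H12 and H75 also had the lowest TMM factors of the 8 libraries (0.90942 and 0.89965), which raises their CPM. With library totals as the scaling, the median log2 fold change over all genes was -0.0794. On that scaling the sum of H75 lay below that of W90, whose TMM factor was 1.0326, and H12 stayed above every wild-type library. Whether the 29 of 32 or the median of 0.20 holds on it was not tested.

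The snoRNAs themselves were almost unseen, and for RNAs this short a count of 0 does not show a lack of expression. The table held 141 Snora and Snord genes, 125 of them at 0 in every library, and together they took at most 0.000138% of a library. Of these, 1 was tested, Snora43, and it was not called. GENCODE places 10 snoRNA genes inside Gas5, 8 inside Snhg1, 5 inside Snhg12 and 2 inside Snhg11 on the same strand, and 1 of these, in Snhg12, had any count, 0.94 in all. Among 13 genes for proteins that assemble snoRNAs into particles, 12 had a higher mean, against 51.1% of all genes, and 0 were called. Gar1, of the H/ACA particle, led them with a log2 fold change of 0.61 (adjusted p = 0.544, edgeR). The 13 genes summed to 176 to 220 CPM in wild-type libraries and to 179 and 196 CPM in H11 and H15. In H12 and H75, the libraries of lowest TMM factors, the sums were 251 and 252 CPM. Whether the 12 of 13 holds with library totals as the scaling was not tested.

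Genes for factors of nonsense-mediated decay, the translation-coupled pathway that degrades spliced Gas5, showed no called difference in RNA. Of 14 tested, 8 had a higher and 6 a lower mean, and 0 were called by edgeR or DESeq2 or had an unadjusted p under 0.05. Smg8, a regulator of the SMG1 kinase, was above every wild-type library in all 4 heterozygous libraries, as the heterozygous group was for 2.06% of all genes. Its log2 fold change was 0.23 (adjusted p = 0.558, edgeR).

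Among other nuclear, imprinted and miRNA-host RNAs, 12 of 28 listed genes were tested. None passed with edgeR, and 3 had an unadjusted p under 0.05, 1 higher and 2 lower, against 9.34% of all genes in either direction. DESeq2 called 1, against 1.16% of all genes. Without H15 it called 2, in a fit that called 778 of the 14505 genes that passed the filter. The higher one was Rian. Rn7sk, the 7SK RNA that holds back transcription elongation, was at 0.462 to 2.11 CPM in wild-type libraries and at 0.201, 0.116, 0.765 and 0 CPM in H11, H12, H15 and H75, a log2 fold change of -2.06 (adjusted p = 0.479, edgeR). Without H15 the log2 fold change was -3.32 (adjusted p = 0.0767, edgeR) and -3.39 with DESeq2, which then called it (adjusted p = 0.0014). Rn7sk is listed at 331 bases and rests on 155 reads in all. Rpph1 (319 bases) and Rmrp (271 bases), too low to be tested, were also highest in W32, W90 and H15. Rpph1 was at 0.613, 0.454 and 0.595 CPM there, and Rmrp at 0.272, 0.265 and 0.255 CPM. They rest on 49 and 28 reads in all. Another entry named Rmrp (281 bases, 3 reads in all) had a value in H12 only, and Terc (423 bases) was highest in H12 as well. Whether the making of the libraries had a part in the Rn7sk values was not tested. Firre, an X-linked nuclear RNA, averaged 44.1 ± 4.82 and 37.6 ± 2.85 CPM (SD, n = 4 each), for a log2 fold change of -0.23 (adjusted p = 0.530, edgeR).

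**Figure D5:**
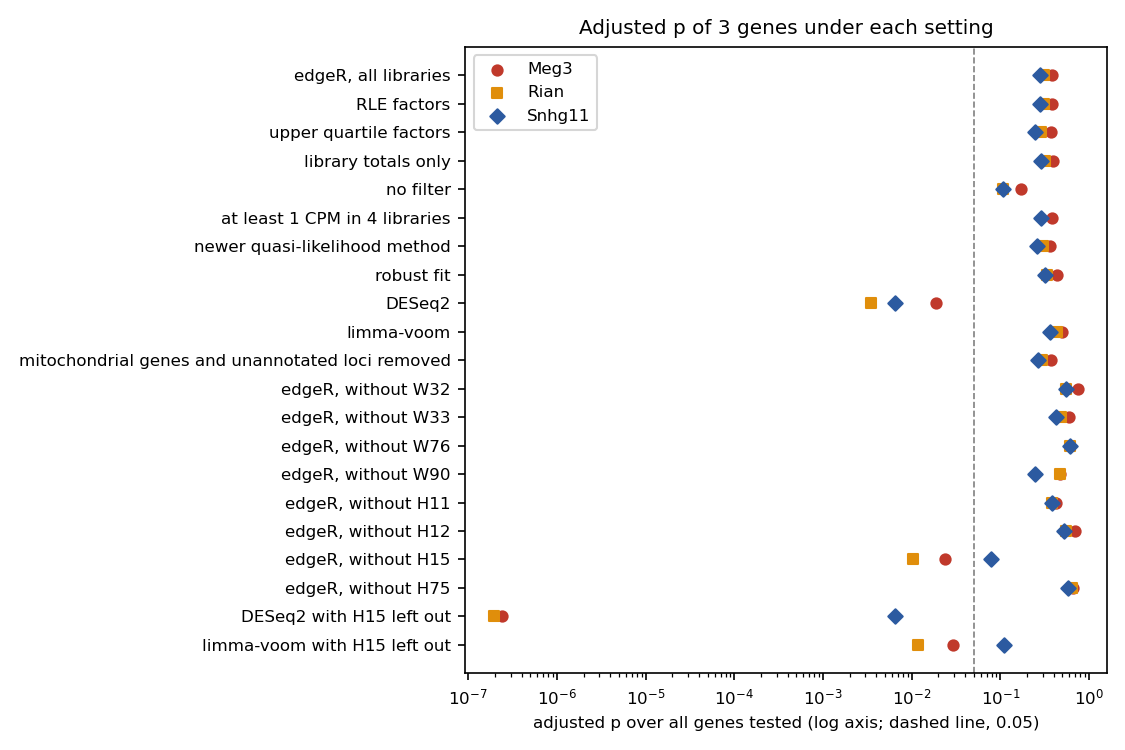
Adjusted p over all genes tested for Meg3, Rian and Snhg11 under each setting, on a log axis with a dashed line at 0.05. Meg3 and Rian pass with DESeq2 and in every fit without H15, and Snhg11 passes in the 2 DESeq2 fits.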

How the data were processed

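Total RNA of 8 livers was treated with DNaseI and depleted of ribosomal RNA with a Ribo-zero kit, per the labels' protocols. Per the submitters' processing notes the tools were SAMtools 1.9, GATK 3.8, Bowtie2 2.2.9 and fastp 0.19.5, in roles left unstated, on mm10. How reads were counted, on which annotation and with what use of strand was not given in the sources used here. Values deposited by the authors are estimated counts per gene, not normalized, and 90.0% are whole, so some reads were split between features. The authors' deposited table of comparisons holds a fold (ratio), a log2 fold change, a p-value, an adjusted p-value and a gene length. Its header gives no direction, and 99.5% of its signs over 13972 shared genes match heterozygous over wild type.

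Columns name the group by their first letter and carry no replicate number. Counts were rounded, filtered with filterByExpr, scaled by TMM and tested for the group term by quasi-likelihood in edgeR 4.0.16 (R 4.3.3) with Benjamini-Hochberg adjustment over 14261 genes. A standard error is the log2 fold change over the square root of F. DESeq2 1.42.0, limma-voom (limma 3.58.1), other scalings and filters, and leaving out each library were alternatives. DESeq2 and limma-voom without H15 were added after seeing the data. Tested on simulated data (14261 genes, 50 changed per fold), edgeR recovered 18% at 1.5-fold, 80% at 2-fold and 98% at 4-fold, with 7 false calls among 155. The simulated counts had the dispersion of the fit, no deviating library such as H15, and changes only in genes above a minimum mean count. These shares thus do not hold for genes that vary as Meg3 did, which was not called in the real data at a fold of 4.31. No 2 libraries of a group agreed within sampling noise (chi-square of 22.5 to 183 per gene). Gene positions are those of GENCODE mouse release 21 (GRCm38, which mm10 denotes). All members were named, with up to 4 genes of lowest p from each other list. The members and lists were chosen with earlier results of these data known.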

Additional observations from a re-analysis of the deposited data

How the results depend on the processing

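Over all genes, where edgeR called 0, the count was 18 with no filter on low counts, 1 with the newer quasi-likelihood method, 1 with the robust fit, 1 without mitochondrial genes and unannotated loci, and 152 with DESeq2. It was 0 to 252 on leaving out each library, with 252 without H15 and 2 without W32, and without H15 it was 778 with DESeq2 and 197 with limma-voom. The count of members called was 2 with DESeq2 and 0 to 1 on leaving out each library, the 1 being Meg3 without H15, and without H15 it was 2 with DESeq2 and 1 with limma-voom. Meg3, Snhg11, Malat1, Snhg1, Rian and Eif2s1 kept their direction in every setting that tested them. Rian was not tested at a filter of 1 CPM in 4 libraries. Signs turned for members near 0, whose log2 fold changes on leaving out each library ran from -0.0944 to 0.128 (Gas5), -0.243 to 0.184 (Kcnq1ot1), -0.110 to 0.0689 (Mir22hg), -0.192 to 0.0597 (Neat1) and -0.00037 to 0.213 (Snhg12). Gas5 was -0.0513 with library totals, which moved the median of all genes to -0.0794, and the lowest value came without H75. Kcnq1ot1 was 0.184 without W76, 0.160 without H12 and 0.0404 without H75. Neat1 was 0.0518 without W76 and 0.0597 without H11. Mir22hg was 0.00166 with limma-voom, 0.0689, 0.0274, 0.0256 and 0.00366 without W32, W33, H15 and H75, and 0.0298 and 0.0377 without H15 with DESeq2 and limma-voom. Snhg12 was -0.00037 without H15 and -0.0267 without it with limma-voom. The cause was not tested. No paired analysis was possible because the columns of the count table carry no replicate number. Among the least counted values were those of Meg3 and Rian, with as few as 15 and 6 reads in a library, and counting error was 19.2% and 10.1% of the Meg3 mean in wild-type and heterozygous libraries.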
